A study of Mus musculus with 6 samples.

Results

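The transcripts of 9 transcription factors that define the hepatocyte were compared between the livers of WT and Vps15LKO mice. The set, chosen by name, holds Hnf4a, Foxa1, Foxa2, Foxa3, Cebpa, Cebpb, Onecut1, Prox1 and Nr5a2, and all 9 were found among the 56305 genes of the deposited table. Each genotype is represented by 3 male mice, aged 5 weeks, with free access to standard chow, whose livers were taken at ZT6 (6 h after lights on) and sequenced singly. Vps15LKO mice are AlbCre+;Vps15 f/f, so Cre driven by the albumin promoter, which is active in hepatocytes and their precursors, deletes Vps15 (gene Pik3r4), the regulatory subunit of class 3 PI3K. The labels call the controls WT, and their Cre and floxed-allele status was not given in the sources used here.

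A hepatocyte keeps its identity through a network of DNA-binding proteins that bind each other's genes as well as the genes for plasma proteins and liver enzymes. Hnf4a is the nuclear receptor at the centre of this network. The Foxa proteins are pioneer factors of the forkhead family that open chromatin early in liver development. Cebpa is the leucine-zipper factor of the mature, resting hepatocyte, and its relative Cebpb is known for the acute-phase response and liver regeneration. Onecut1 (Hnf6) is a homeodomain factor of hepatocytes and bile ducts, Prox1 is a homeodomain factor that also acts as a corepressor of nuclear receptors, and Nr5a2 (Lrh1) is the nuclear receptor best known for bile acid synthesis genes.

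The promoters of these genes were searched for short motifs that the factors themselves bind, and for the E-box, the site of Bmal1–Clock, since cross-regulation is how the network is usually described. RefSeq lists 14 promoter windows for the 9 genes on GRCm38.p6, each of 300 bases from 250 before to 50 after a transcription start. The motifs, read on both strands, were CACGTG (E-box), TGTTTAC (forkhead), CAAAGTCCA (Hnf4a), TTGCNNAA (C/EBP), ATTGAT (Onecut) and CAAGGTCA (Nr5a2). A match occurred in 5 of the windows, which are shown 5′ to 3′ on the strand of the gene with the match in capitals.
Hnf4a, chr2:163506607-163506906, plus strand, Onecut motif: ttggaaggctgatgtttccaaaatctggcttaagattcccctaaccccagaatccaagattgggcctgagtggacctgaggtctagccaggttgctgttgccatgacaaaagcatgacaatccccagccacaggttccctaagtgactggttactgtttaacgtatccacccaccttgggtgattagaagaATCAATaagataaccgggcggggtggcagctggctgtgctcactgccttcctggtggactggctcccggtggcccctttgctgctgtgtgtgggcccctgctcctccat
Foxa1, chr12:57546062-57546361, minus strand, forkhead motif: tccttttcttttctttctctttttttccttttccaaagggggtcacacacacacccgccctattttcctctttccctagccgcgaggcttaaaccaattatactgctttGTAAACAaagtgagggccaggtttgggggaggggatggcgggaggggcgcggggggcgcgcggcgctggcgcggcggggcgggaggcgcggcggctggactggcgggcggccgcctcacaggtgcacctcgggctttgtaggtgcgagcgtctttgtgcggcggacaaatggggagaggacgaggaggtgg
Foxa2, chr2:148046920-148047219, minus strand, Onecut motif: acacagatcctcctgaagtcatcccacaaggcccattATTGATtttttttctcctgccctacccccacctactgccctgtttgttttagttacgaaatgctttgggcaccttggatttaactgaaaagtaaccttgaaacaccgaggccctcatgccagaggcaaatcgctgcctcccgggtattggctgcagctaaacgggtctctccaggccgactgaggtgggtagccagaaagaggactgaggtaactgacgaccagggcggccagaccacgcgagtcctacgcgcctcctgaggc
Onecut1, chr9:74861671-74861970, plus strand, E-box: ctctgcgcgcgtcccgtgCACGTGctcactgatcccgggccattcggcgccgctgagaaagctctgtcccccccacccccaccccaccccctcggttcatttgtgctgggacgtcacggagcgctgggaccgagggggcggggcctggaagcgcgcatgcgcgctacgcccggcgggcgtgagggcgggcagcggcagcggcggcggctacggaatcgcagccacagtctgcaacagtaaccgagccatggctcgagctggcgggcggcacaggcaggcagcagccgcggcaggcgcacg
Nr5a2, chr1:136953581-136953880, minus strand, C/EBP motif: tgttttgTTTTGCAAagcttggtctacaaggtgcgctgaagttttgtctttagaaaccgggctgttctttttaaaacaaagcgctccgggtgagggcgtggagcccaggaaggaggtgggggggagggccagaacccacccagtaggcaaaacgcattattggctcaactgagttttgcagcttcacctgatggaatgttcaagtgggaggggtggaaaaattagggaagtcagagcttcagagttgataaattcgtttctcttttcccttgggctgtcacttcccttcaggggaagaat
The matches started at −59 (Hnf4a), −141 (Foxa1), −213 (Foxa2), −232 (Onecut1) and −243 (Nr5a2) relative to the transcription start. No motif overlapped another in these windows. Among all 32851 RefSeq windows of this length, the Onecut motif was found in 7.54%, the E-box in 7.15%, the forkhead motif in 3.65% and the C/EBP motif in 10.8%. The Hnf4a and Nr5a2 motifs, found in 0.475% and 1.56% of all windows, had no match in the 14. A match is a description of the letters in the window, and binding was not measured here.

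The libraries held 16137093 to 18110223 reads on genes, and the lowest count of any of the 9 factors in any library was 224 reads. The deposited normalized count of a gene is its number of reads divided by 1 size factor per library. The size factor was 0.742 to 0.801 for WT and 1.23 to 1.41 for Vps15LKO libraries, which sets any gene holding an equal part of the reads at a smaller value in Vps15LKO liver. Scaling every library to the same total of reads instead moved the log2 fold change of the median tested gene up by 0.72, and this value is given below beside the others. Each library had a median distance from the mean of the other livers of its genotype of 0.104 to 0.19 on the log2 scale, and none stood apart. Pik3r4 had 508, 573 and 459.7 normalized counts in WT and 341, 362 and 355 in Vps15LKO livers, a log2 fold change of −0.54 that became 0.19 under total-read scaling. Reads from the floxed stretch are pooled there with those from the remaining transcript.

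The genotypes were compared with limma on log2(normalized count + 1) over the 15430 genes that reached 20 normalized counts in 3 or more livers. Calls required an adjusted p below 0.05 together with a 1.2-fold difference or more, and 66.5% of all tested genes met this. Of the 9 factors, Vps15LKO liver had 7 called lower and 0 higher, while 33.0% of all tested genes were called lower and 33.5% higher. Total-read scaling left 2 of the factors lower and 1 higher, beside 11.1% and 66.7% of all tested genes, and quantile normalization left 6 lower, beside 37.6%. Among the 3086 tested genes of highest mean normalized count, to which 5 of the factors belong, 57.7% were called lower with the authors' size factors. The median log2 fold change was −0.84 over the 9 factors and −0.02 over all tested genes, or −0.11 and 0.70 with total-read scaling. For 8 of the 9 every Vps15LKO liver lay below every WT liver, a pattern shown by 36.8% of all tested genes, while 36.4% showed the reverse. RNA was taken from whole liver, in which fewer hepatocytes and less RNA per hepatocyte cannot be told apart.

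**Figure D1:**
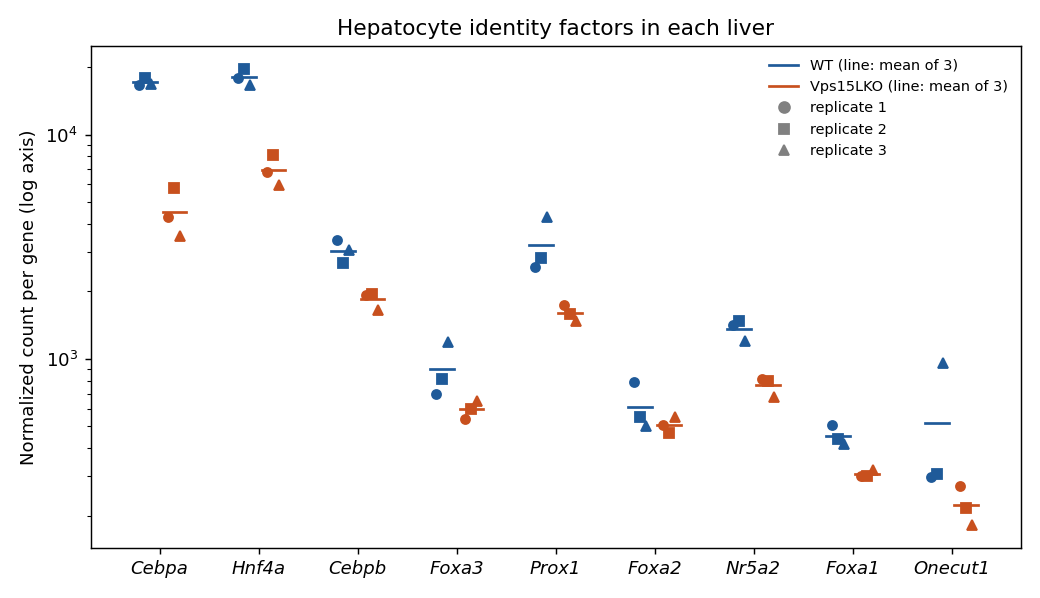
Normalized counts of the 9 factors in each liver on a log axis, ordered by level per kb of exon in WT. Points are single mice (3 per genotype, shaped by replicate number) and lines are means. Cebpa and Hnf4a, near 17095 and 18054 in WT, had the widest gap between genotypes, the points of Foxa2 overlapped, and WT replicate 3 stood above the other WT mice for Onecut1, Prox1 and Foxa3.

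Cebpa, which drives urea cycle, glycogen and plasma protein genes in resting hepatocytes, had the lowest log2 fold change of the 9 with the authors' size factors and with total-read scaling, and came after Onecut1 with quantile normalization. It lies on chromosome 7 of GRCm38 from 35119293 to 35121928 as a single exon. Its normalized counts were 16720.2, 17796 and 16769 in the WT livers, always listed here by replicate number from 1 to 3, and 4311, 5765 and 3521 in the Vps15LKO livers. The WT mice differed from each other by 1.06-fold at most, and all Vps15LKO mice lay far below them, at 26.5% of the WT mean on average. Its log2 fold change was −1.94 (limma, Benjamini-Hochberg adjusted p = 2.83e-05, standard error 0.18), and 3.80% of all tested genes had a lower one. With total-read scaling it was −1.22 and with quantile normalization −1.02, still called lower. The antisense gene Gm45091, which shares 51 bp of exon with Cebpa on the other strand, had 2254, 2591 and 2487 normalized counts in WT and 622, 872 and 480.2 in Vps15LKO livers, a log2 fold change of −1.93.

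Hnf4a, required for hepatocyte differentiation and for much of lipoprotein, bile acid and coagulation factor expression, came next to Cebpa with the authors' size factors and with total-read scaling, but only Cebpb and Foxa2 had a smaller decrease than Hnf4a with quantile normalization. The gene spans chromosome 2 from 163506808 to 163572910, and its transcripts from both known promoters are counted together. The WT mice had 17857, 19667 and 16638 normalized counts and the Vps15LKO mice 6823, 8087 and 5982. Every Vps15LKO mouse was below every WT mouse, with a mean of 38.6% of that in WT. The log2 fold change was −1.38 (limma, adjusted p = 7.43e-05, standard error 0.15). It was −0.66 with total-read scaling and −0.33 with quantile normalization, both called lower. Cebpa and Hnf4a were the only members of the set called lower under total-read scaling, where 11.1% of all tested genes were. Hnf4aos, an antisense RNA within the span of Hnf4a that shares no exon sequence with it and was picked after its values were seen, had 78.2, 106 and 48.5 normalized counts in WT and 3.82, 7.29 and 2.83 in Vps15LKO livers.

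Cebpb had a smaller difference than Cebpa. It is a single exon on chromosome 2 from 167688915 to 167690418. Its normalized counts were 3376, 2677 and 3063 in WT and 1935, 1947 and 1657 in Vps15LKO livers. The genotypes did not overlap, and the log2 fold change was −0.72 (limma, adjusted p = 0.000674, standard error 0.12). Under total-read scaling the difference was 0.011 and not called, and with quantile normalization it was −0.26 and under the fold threshold. Tmem189, on the other strand, shares 312 bp with Cebpb, or 20.7% of its exon, and had a log2 fold change of −0.61. The libraries were made with a strand-marking kit, but whether the counting used strand is not given, so reads in shared stretches cannot be assigned here.

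The Foxa factors, with Cebpb, had the smallest differences with the authors' size factors. With quantile normalization this order changed, the log2 fold change being −0.59 for Foxa1, −0.44 for Foxa3 and −0.17 for Foxa2. Foxa1, on chromosome 12 from 57540628 to 57546916, had 507, 438 and 417 normalized counts in WT and 300.1, 299 and 319 in Vps15LKO livers. Its values did not overlap between genotypes, with a log2 fold change of −0.56 (limma, adjusted p = 0.00151, standard error 0.11). Foxa2, the family member tied to bile acid and glucose handling and on chromosome 2 from 148042877 to 148046969, had 786, 549.6 and 501 in WT and 509, 468 and 548 in Vps15LKO livers. Here the genotypes overlapped, WT replicate 1 alone being high, and the difference of −0.24 was not called (95% interval from −0.62 to 0.13, adjusted p = 0.221, limma). The value for Foxa2 was −0.049 without WT replicate 1 and −0.37 without WT replicate 3, called in neither case. Foxa3, the most abundant Foxa transcript of the adult liver and on chromosome 7 from 19013284 to 19023538, had 699, 816 and 1189 in WT and 538, 599.7 and 651 in Vps15LKO livers. Foxa3 had a log2 fold change of −0.56 (limma, adjusted p = 0.0238, standard error 0.18). Without Vps15LKO replicate 1 the call of Foxa3 was lost (adjusted p = 0.0853, limma), and without WT replicate 3 its log2 fold change was −0.34. Under total-read scaling the direction of all Foxa genes flipped, to 0.16 for Foxa1 and Foxa3, which were not called, and to 0.48 for Foxa2, which was called higher beside 66.7% of all tested genes.

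For Onecut1 and Prox1, WT replicate 3 stood above the other WT mice. Onecut1, on chromosome 9 from 74861921 to 74891781, had 297, 306 and 954 normalized counts in WT and 269.6, 216 and 182 in Vps15LKO livers. All Vps15LKO values lay below all WT values, but the WT mice differed by 3.21-fold, and the log2 fold change of −1.01 was not called (standard error 0.41, adjusted p = 0.0549, limma). It was called when any WT replicate was left out, at −1.30 without replicate 1, −1.27 without replicate 2 and −0.45 without replicate 3 (adjusted p = 0.0448 for the last, limma). The lincRNA Gm20649 shares 52.8% of the exon sequence of Onecut1 on the same strand, so reads could be split or dropped between them, and it too was highest in WT replicate 3, with 225, 159.9 and 632 normalized counts in WT and 151, 122 and 106 in Vps15LKO livers.

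Prox1, which in liver opposes Hnf4a and Nr5a2 activity and also marks lymphatic endothelium, lies on chromosome 1 from 190118035 to 190170714. It had 2572, 2812 and 4275 normalized counts in WT and 1744, 1583 and 1475 in Vps15LKO livers. The groups did not overlap, and the log2 fold change was −0.97 (limma, adjusted p = 0.00142, standard error 0.18), or −0.75 without WT replicate 3. Prox1 was not called under total-read scaling (−0.25). Of 5 lymphatic endothelial markers, 3 passed the filter on low values and 3 were called higher (2 with quantile normalization). Beside them 33.5% of all tested genes were called higher, or 66.7% with total-read scaling. The summed level of the 5 ran from 1035.3 to 1156 normalized counts among WT and from 1997 to 2162 among Vps15LKO livers. Most of this sum was Flt4, with 1009, 928 and 778 in WT and 1710, 1560 and 1690 in Vps15LKO livers. Mmrn1 had 0 reads in every library and Ccl21a 0 in WT. The part of lymphatic endothelium in the level of Prox1 was not tested. Prox1os, antisense to Prox1 with 133 bp of shared exon, had a log2 fold change of −1.43.

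Nr5a2, which activates genes of bile acid synthesis and is held back by the corepressor Nr0b2, lies on chromosome 1 from 136842571 to 136960448. The WT mice had 1419, 1471 and 1197 normalized counts and the Vps15LKO mice 816, 797 and 675. All Vps15LKO mice were lower than all WT mice, at 56.0% of the WT mean, with a log2 fold change of −0.84 (limma, adjusted p = 0.000264, standard error 0.12). With total-read scaling the log2 fold change of Nr5a2 was −0.11 and not called.

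**Figure D2:**
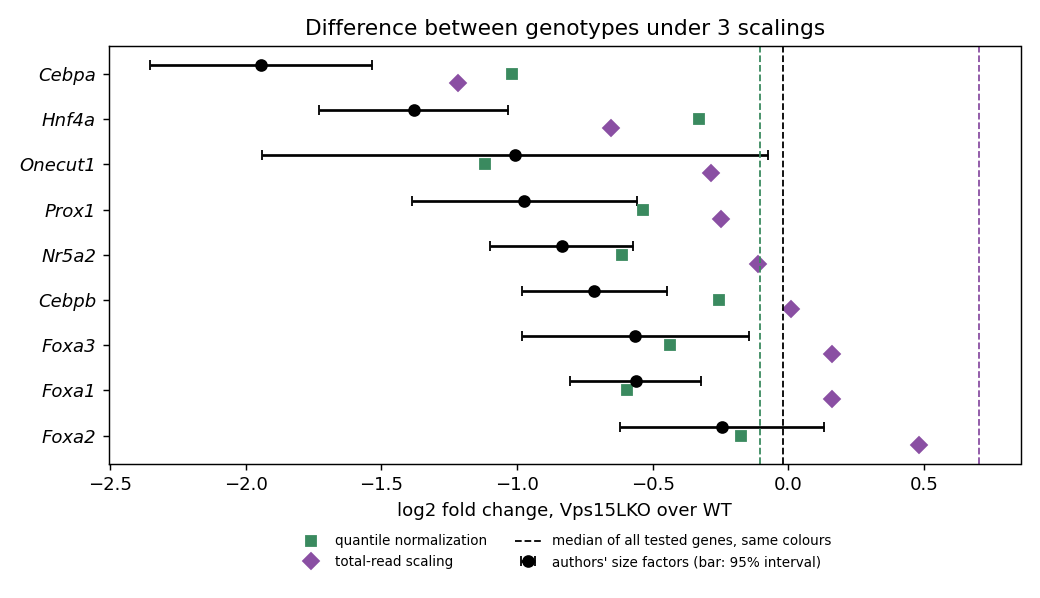
log2 fold change of each factor (Vps15LKO over WT, 3 mice each) with the authors' size factors (black, bars are 95% intervals from limma), quantile normalization (green) and total-read scaling (purple), beside the median of all tested genes under each scaling (dashed lines). Cebpa, Hnf4a, Onecut1, Prox1 and Nr5a2 lay below 0 under each of these scalings, and the points of Foxa1, Foxa2, Foxa3 and Cebpb crossed 0 under total-read scaling.

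Levels of different genes were compared as normalized counts per kb of merged exon. In WT liver Cebpa was highest (6485 ± 230.4, SD, n = 3), followed by Hnf4a (3739 ± 316) and Cebpb (2020.3 ± 233), and these levels did not overlap between neighbours. Next came Foxa3 (442 ± 126), Prox1 (384 ± 110), Foxa2 (258 ± 64.3) and Nr5a2 (231 ± 24.7), neighbours among these 4 overlapping. Foxa1 (136 ± 14.1) lay below Nr5a2 without overlap and overlapped with Onecut1 (126 ± 91.7). In Vps15LKO liver the levels per kb of the upper 3 had drawn together, at 1719 ± 432 for Cebpa, 1442 ± 219 for Hnf4a and 1228 ± 109 for Cebpb (SD, n = 3), and each overlapped with the next. Foxa2 (215 ± 16.8) and Prox1 (191 ± 16.1) had exchanged places there but overlapped. Overlap here is between mice. Within each Vps15LKO liver Cebpa was above Hnf4a, Hnf4a above Cebpb, and Foxa2 above Prox1. Among 15412 genes ranked by level per kb within a liver, Cebpa stood at percentile 98.7 to 98.8 in WT and 96.6 to 97.6 in Vps15LKO livers, Hnf4a at 97.8 to 98.1 and 96.4 to 97.0, and Foxa1 at 65.2 to 68.8 and 56.5 to 59.4. Foxa2, by contrast, stood at 76.4 to 82.4 in WT and 76.1 to 80.3 in Vps15LKO livers. The genotypes overlapped in this way for Cebpb too (96.0 to 96.6 and 96.0 to 96.3) and for Foxa3 (82.8 to 89.5 and 82.2 to 85.4).

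Because a scaling by 1 factor per library cancels in the ratio of 2 of its genes (quantile normalization does not cancel), ratios were taken within each liver to compare the decreases with one another. In all, 12 pairs were examined with exact two-sided permutation tests over the 6 livers, for which the smallest p that 3 mice against 3 allow is 0.1 and the smallest adjusted p reached was 0.15, so no pair could pass the threshold. The log2 ratio of Cebpa to Cebpb was 2.31, 2.73 and 2.45 in the WT and 1.16, 1.57 and 1.09 in the Vps15LKO livers. The ratio was thus 2.34-fold lower in Vps15LKO liver, a log2 difference of −1.23 (standard error 0.19), and the genotypes did not overlap. The log2 ratio of Cebpa to Hnf4a was lower in every Vps15LKO liver too, at −0.09, −0.14 and 0.01 in WT and −0.66, −0.49 and −0.76 in Vps15LKO livers.

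The ratio to Hnf4a was higher in every Vps15LKO liver than in any WT liver for 5 factors. Only 7.69% of all tested genes had a lower log2 fold change than Hnf4a, so a rise relative to it is what most genes show, and nothing about the 5 is read from their count. The log2 difference in the ratio to Hnf4a was 1.14 for Foxa2, 0.82 for Foxa1 and Foxa3, 0.67 for Cebpb and 0.55 for Nr5a2 (standard errors 0.28, 0.18, 0.33, 0.17 and 0.09). The ratios of Prox1 and Onecut1 to Hnf4a overlapped, with differences of 0.41 and 0.37 (standard errors 0.30 and 0.63). Leaving out 1 liver moved the former between 0.26 (without WT replicate 2) and 0.69 (without WT replicate 3), and the latter between 0.045 and 0.98 without the same livers. With quantile normalization the direction relative to Hnf4a (−0.33) turned for Foxa1 (−0.59), Foxa3 (−0.44), Nr5a2 (−0.61), Prox1 (−0.53) and Onecut1 (−1.12), and held for Foxa2 (−0.17) and Cebpb (−0.26), as log2 fold changes. Within the Foxa family the log2 ratio of Foxa1 to Foxa2 was −0.63, −0.33 and −0.27 in WT and −0.76, −0.65 and −0.78 in Vps15LKO livers, lower in the latter by 0.32 on the log2 scale without overlap. The other two Foxa pairs overlapped.

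**Figure D3:**
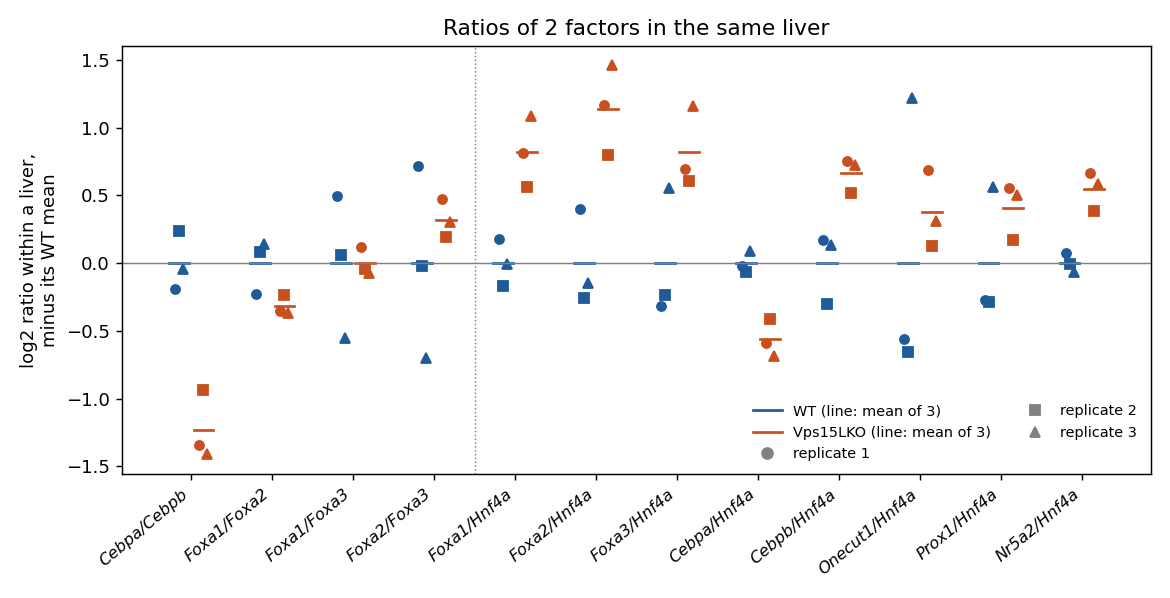
log2 ratio of 2 factors in the same liver, minus the WT mean of that ratio, for the 4 pairs within a family (left of the dotted line) and the 8 pairs with Hnf4a. Points are single mice, lines are means of 3, and the Cebpa to Cebpb ratio shows the largest drop, of 1.23 on the log2 scale.

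The closest relatives of the 9 factors were followed in a list of 10 paralogs, of which 7 passed the filter. Cebpd, an inducible C/EBP factor of inflammation, was higher, with 160.4, 114 and 155 normalized counts in WT and 339.8, 264 and 413 in Vps15LKO livers (log2 fold change 1.23, adjusted p = 0.000555, limma). Ddit3 (CHOP), the stress-induced C/EBP relative that forms inactive dimers with the others, was higher as well, at 145, 119.9 and 111 against 304, 284 and 282 (log2 fold change 1.22, adjusted p = 6.6e-05, limma). The groups of both genes did not overlap, and total-read scaling and quantile normalization gave the same calls. Cebpe, best known from granulocyte maturation, had 259, 219 and 136 normalized counts in WT and 35.9, 38.9 and 12.7 in Vps15LKO livers, a log2 fold change of −2.87 that was called lower under all 3 scalings.

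Cebpz (−0.69) and Onecut2 (−0.65) were called lower with the authors' size factors but not under total-read scaling, with log2 fold changes of 0.04 and 0.07 there. Onecut2, with 1847, 2015 and 2469.6 normalized counts in WT and 1438, 1216 and 1352 in Vps15LKO livers, did not share the high value of Onecut1 in WT replicate 3 to the same degree, its WT mice differing by 1.34-fold. Cebpg, a partner of other C/EBP factors, had a log2 fold change of −0.26 and Prox2 one of −0.59, and neither was called. Hnf4g was counted with 1 to 13 reads per library, Nr5a1 with at most 1, and Onecut3 with 0, which allows up to 3 reads per library. Cebpd shares 562 bp and Ddit3 186 bp of exon with other genes. Over the list, 3 paralogs were called lower and 2 higher, and 1 and 3 under total-read scaling, of 7 tested, beside 33.0% and 33.5% of all tested genes, or 11.1% and 66.7%.

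Other transcription factors enriched in liver were followed in a list of 22 genes. All passed the filter, and 17 were called lower, 2 higher and 3 not, beside 33.0% of all tested genes called lower, with a median log2 fold change of −0.83. With total-read scaling there were 8 lower and 6 higher, with a median of −0.11 beside 0.70 for all tested genes. Klf15, a regulator of amino acid breakdown and gluconeogenesis, had the largest fall, from 4406, 3687 and 3873 to 779, 882 and 659 normalized counts (log2 fold change −2.37, standard error 0.13, adjusted p = 1.94e-06, limma). Nr0b2 (SHP), the repressor that is both a target and a partner of Nr5a2, followed at −2.22. The rises were those of Cux2 (2.26), a cut-homeobox factor known as female-enriched in mouse liver, and Gata6 (1.57), a zinc-finger factor of endoderm. No call was made for Hhex (log2 fold change 0.14), Gata4 (0.14) or Zhx2 (−0.15).

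Factors of bile duct and progenitor cells made a list of 8 genes, of which 7 passed the filter. Of these, 6 were called higher and 1, Onecut2, lower, beside 33.5% of all tested genes called higher (66.7% with total-read scaling), and the same 6 were higher under total-read scaling and quantile normalization. Sox4 had 61.0, 41.2 and 66.1 normalized counts in WT and 1579, 1226 and 2043 in Vps15LKO livers (log2 fold change 4.82, adjusted p = 1.06e-06, limma), though 54.6% of its exon sequence is shared with a gene on the other strand. Elf3, an epithelial ETS factor, had a log2 fold change of 3.71. In WT livers Elf3 had 7.96, 11.2 and 22.9 normalized counts and Ehf, also of this list, 11.9, 16.2 and 24.3. Both passed the filter only through the Vps15LKO livers, where they were high, so the count of 6 is partly set by the filter.

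The known target genes of the factors were described by lists that overlap, since promoters of liver genes bind several of these proteins. The background for each count below is 33.0% of all tested genes lower and 33.5% higher (57.7% lower among the 3086 of highest mean), or 11.1% and 66.7% with total-read scaling. Of 20 Hnf4a targets, 19 were called lower and 1 higher (median log2 fold change −1.90), and total-read scaling left 17 lower and 1 higher (median −1.17). Cyp8b1, the sterol 12-hydroxylase of bile acid synthesis, fell most, with 11971, 11578 and 8329 normalized counts in WT and 469.6, 1658 and 290.0 in Vps15LKO livers (log2 fold change −4.10, standard error 0.54, adjusted p = 0.000187, limma). Slc10a1, the bile acid uptake transporter Ntcp, had a log2 fold change of −3.24. Apoc2 was the exception at 0.65, and 79.5% of its exon sequence is shared with another gene on the same strand.

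Of 11 Cebpa targets, 10 were called lower and 0 higher (median −1.86), or 9 and 0 with total-read scaling (median −1.13). G6pc and Pck1, the glucose-6-phosphatase and PEPCK of gluconeogenesis and members of the Foxa and Onecut1 lists too, had log2 fold changes of −3.21 and −3.03. Alb, the 1 target not called, had at least 2030860 normalized counts in WT and at most 968935 in Vps15LKO livers, without overlap, and its log2 fold change of −1.48 had a standard error of 1.38 and an adjusted p = 0.366 (limma). That standard error is wider than the spread between mice, who differed by 1.16-fold in WT and 1.56-fold in Vps15LKO. It reflects the variance trend in the fit, not variable values. The same holds for Ahsg (standard error 0.46) and C3 (0.43), uncalled in lists below. Of 9 Nr5a2 targets, 8 were lower and 0 higher (median −1.77), or 6 and 1 with total-read scaling (median −1.04). The 8 include Cyp7a1, the rate-limiting enzyme of bile acid synthesis (−1.77). Of 7 Onecut1 targets, 6 were lower and 1 higher, with a median of −1.98 that was −1.26 with total-read scaling.

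The Foxa list was mixed. Of 10 targets 6 were lower and 2 higher, with a median of −1.92. Total-read scaling and quantile normalization each gave 6 lower and 3 higher, with medians of −1.196 and −0.60. The rises were those of Afp, the fetal albumin relative, with 30.5, 31.2 and 63.4 normalized counts in WT and 12302, 8297 and 15643 in Vps15LKO livers (log2 fold change 8.18, adjusted p = 4.17e-07, limma), and of Igfbp1 (3.40), an IGF-binding protein. Of 11 Cebpb acute-phase targets, 3 were lower, 2 higher and 6 not called, with a median of −0.26, or 3 lower and 5 higher with total-read scaling, where the median was 0.47. Lcn2, an iron-sequestering acute-phase protein, rose from 158, 249 and 506 to 14607, 9359 and 16658 normalized counts (log2 fold change 5.60, adjusted p = 6.93e-06, limma), and Orm2 rose by 0.84. Crp (−1.90) and Orm1 (−1.75) fell. Saa1 was not called and was again high in WT replicate 3, with 358, 381 and 1813 in WT and 322, 363 and 240.5 in Vps15LKO livers.

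**Figure D4:**
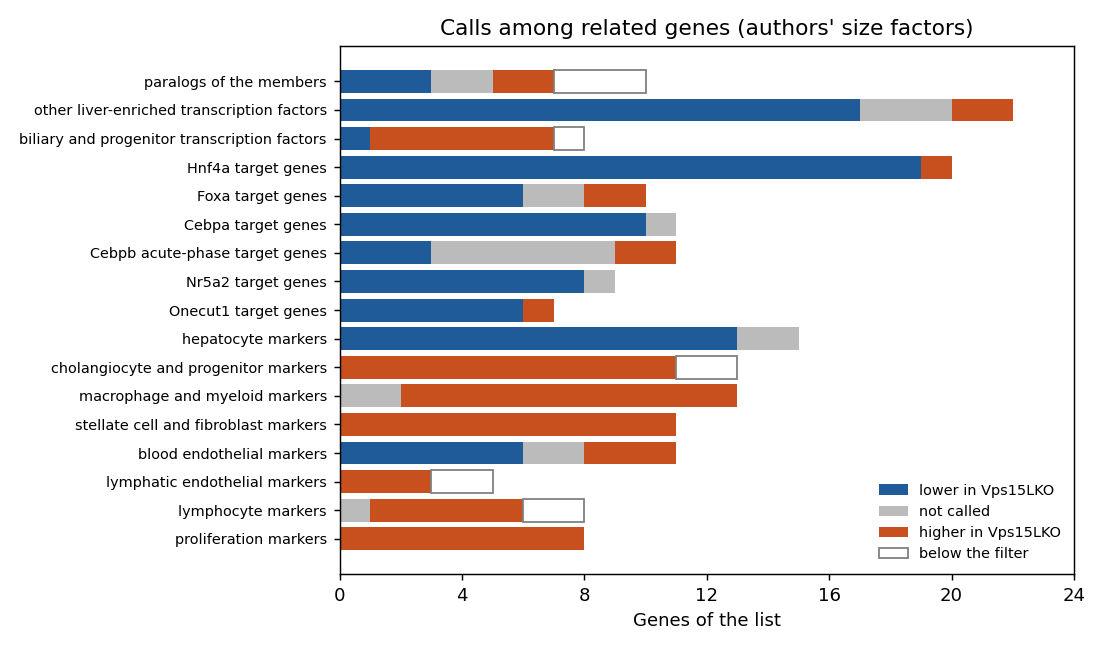
Number of genes in each list called lower (blue), not called (grey) or called higher (orange) in Vps15LKO liver by limma with the authors' size factors, with genes below the filter in white. Lists of Hnf4a, Cebpa, Nr5a2 and Onecut1 targets and hepatocyte markers were mostly lower, and markers of cholangiocytes, macrophages, stellate cells and dividing cells mostly higher. Lists share genes.

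Markers of cell types were read on the same livers, and their part in the values of the 9 factors was not tested. Of 15 hepatocyte markers 13 were called lower and 0 higher (median −1.71), beside 33.0% and 33.5% of all tested genes. Total-read scaling left 13 lower (median −0.98) and quantile normalization 9 (median −0.65). Their sum ran from 3255600 to 3631380 normalized counts among WT and from 989474 to 1480280 among Vps15LKO livers. Alb alone made up most of this sum, with 2030860 to 2350420 in WT and 620735 to 968935 in Vps15LKO livers. The 2 markers not called, Alb and Ahsg, were lower in every Vps15LKO liver than in any WT liver. Of 13 cholangiocyte and progenitor markers 11 passed the filter and 11 were called higher, with a sum of 1526 to 1969 in WT and 16398 to 29003 in Vps15LKO livers, where Epcam had 257, 187 and 381 normalized counts. In WT livers Cftr had 5.30, 1.25 and 2.70 normalized counts and Krt7 23.9, 17.5 and 18.9. Both passed the filter only through the Vps15LKO livers, where they were high, so the count of 11 is partly set by the filter. Macrophage and myeloid markers, a cell class that uses Cebpa and Cebpb itself, were called higher in 11 of 13 and lower in 0, with a sum of 5426 to 6773 in WT and 21178 to 21978 in Vps15LKO livers. All 11 stellate cell and fibroblast markers were higher, with sums of 7196 to 7713 and 31069.9 to 36689.9. Of 11 blood endothelial markers 6 were lower and 3 higher, or 0 and 7 under total-read scaling, and their sums of 11787 to 13137 and 10572 to 12478 overlapped. Of 8 lymphocyte markers, 6 passed the filter and 5 were higher, summing to 105 to 139 in WT and 299 to 348 in Vps15LKO livers, and all 8 proliferation markers were higher, summing to 597 to 876 and 3815 to 4135. The lymphocyte markers Cd3d, Cd3e and Cd8a and the proliferation marker Ccnb1 likewise passed the filter only through the Vps15LKO livers.

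For each factor, the gene with the most similar profile was sought among 11239 other tested genes whose mean reached 100 normalized counts, as the smallest root mean square difference of mean-centred log2 values over the 6 livers. Slc6a12 came nearest to Cebpa (0.0377), Rnf146 to Hnf4a (0.0412), Pfdn6 to Cebpb (0.0381), Eif5 to Nr5a2 (0.0348), U2af1 to Foxa1 (0.0381), Klhl25 to Foxa3 (0.0405), Rex1bd to Foxa2 (0.0641) and Gm43361 to Prox1 (0.0946). Onecut1 had the least close match, Rarres1 at 0.172. With 2 genotypes of 3 mice, such likeness mostly restates the genotype difference.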

How the data were processed

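RNA-Seq libraries of 3 WT and 3 Vps15LKO livers were used, 1 per mouse, with groups and replicate numbers taken from the sample labels. Reads had been cleaned by the authors in SOAPnuke, aligned in HISAT2 (GRCm38), assigned to genes by featureCounts and normalized in DESeq2. The versions and the strand and multi-mapping settings were not given in the sources used here. The deposited values are a signal, read counts divided by 1 size factor per library. In each library 100% of the values above 0 were whole multiples of 1 step (within 0.01 reads), so whole reads were recovered. Gene names, exons and coordinates came from GENCODE M21 (GRCm38), which named 55141 of the 56305 genes, and promoters from RefSeq.

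log2(normalized count + 1) was compared with limma 3.58.1 (with a trend, R 4.3.3), and p-values were adjusted by Benjamini-Hochberg across the tested genes. No interval for counting error is given, as the spread between mice includes it. Ratios were compared with exact permutation tests in scipy 1.17.1. The fit was tested on simulated data first. Named genes are the 9 factors, their paralogs, overlapping genes, the nearest profile of each, and the 2 largest called rises and falls of each list, while other examples were picked with their values in view. Some genes that this rule names, and a further promoter motif that was searched, are not reported here. The 9 factors and all lists were chosen with earlier results of these data known.

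Alternatives were other pseudocounts (0.1 and 10), filters, scalings and thresholds, a trend-free limma fit, 3 fits to the recovered reads (DESeq2 1.42.0, edgeR 4.0.16 and voom), each replicate left out, and replicate number as a block.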

Additional observations from a re-analysis of the deposited data

How the results depend on the processing

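Cebpa and Hnf4a were called lower under each of the 22 alternatives, with their smallest values under quantile normalization (−1.02 and −0.33). Total-read scaling left 2 factors called lower and 1 higher, and 1712 of all tested genes lower and 10299 higher. Under it the log2 fold changes reversed to 0.16 for Foxa1 and for Foxa3, 0.48 for Foxa2 and 0.011 for Cebpb, and those of Prox1 (−0.25) and Nr5a2 (−0.11) were no longer called. Quantile normalization left Foxa3 (−0.44) and Cebpb (−0.26) uncalled, and upper-quartile scaling over the tested genes Foxa3 (−0.44). That set of genes was chosen after the values were seen. Over all genes with a read, an alternative added after seeing the data, upper-quartile scaling moved values the other way, with Foxa3 called (−0.66) and Onecut1 called as well (−1.10). With calls limited to 1.5-fold and an adjusted p below 0.01, 3298 genes were lower, and Foxa1 (−0.56) and Foxa3 (−0.56) lost their call. Onecut1 gained a call with quantile normalization (−1.12) and with edgeR (−1.18), which on the recovered reads called 4822 genes lower and 5383 higher. The cause of these changes was not tested.

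When single livers were dropped, the log2 fold change ran from −1.30 to −0.45 for Onecut1, called without each WT replicate, and from −0.73 to −0.34 for Foxa3. The log2 difference in the ratio of Foxa1 to Foxa3 ran from −0.28 without WT replicate 3 to 0.25 without WT replicate 1, and was −0.058 without Vps15LKO replicate 1 and −7.1e-05 with a pseudocount of 0.1. That of Foxa2 to Foxa3 ran from −0.027 without WT replicate 3 to 0.68 without WT replicate 1. With replicate number as a block, Onecut1 (−1.01) was called lower. The labels tie no number to a litter, and livers of the same number correlated in their deviations by −0.0099, −0.011 and 0.049, so the number was not taken as a pairing. The block changed no other call of the 9 factors.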
